A study of Homo sapiens with 6 samples.

Results

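The 37 genes described here make, lengthen, desaturate, activate and burn fatty acids, or store and release them as triglyceride in lipid droplets, and were measured in PC-3 cells with and without BHLHE22 overexpression. They were taken by gene name from the deposited table, which lists 58302 genes, and each name matched 1 row. All 37 had at least 1 count, and 35 of them passed a filter on low counts (edgeR's filterByExpr) and were tested. PC-3 is an established prostate cancer cell line, originally from a bone metastasis, with little or no androgen receptor activity. One group of 3 libraries came from PC-3 cells given lentivirus for overexpression of BHLHE22, which encodes a transcription factor of the basic helix-loop-helix class, and the other 3 from PC-3 cells given a blank lentivirus, called vector here. Both groups therefore carry a lentivirus, in 1 cell line. The labels do not say whether a clone or a pool was sequenced, how long after infection RNA was taken, or whether replicate libraries stem from separate cultures. The p-values therefore rest on library-to-library spread alone, and that spread may be technical.

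Fatty acid synthesis starts in the cytosol with acetyl-CoA, which acetyl-CoA carboxylase turns into malonyl-CoA and fatty acid synthase builds into palmitate; elongases and desaturases then set chain length and double bonds. For oxidation, a fatty acid is activated to its acyl-CoA, carried into the mitochondrion by the carnitine palmitoyltransferases, and shortened by dehydrogenases matched to its chain length, while malonyl-CoA inhibits the carnitine step. Acyl-CoA that is not burned can be esterified to triglyceride and kept in droplets coated by perilipins, from which lipases release it; in prostate cancer, synthesis and droplet storage are often described as raised, and the PPAR receptors sense fatty acids and control many of these genes.

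The libraries held 12186723 to 15949537 counts, and BHLHE22 itself had 1 count in each vector library and 98, 92 and 133 counts in the libraries labelled BHLHE22. Across all 15945 genes tested, edgeR's quasi-likelihood test called 49.4% at a Benjamini-Hochberg adjusted p under 0.05, 25.1% higher and 24.3% lower with BHLHE22. Levels are given as CPM, a gene's count relative to its library's total after TMM scaling, which sets the typical gene to no change; a log2 fold change (with its standard error, SE) is BHLHE22 against vector, so that 1 is a doubling. With unscaled library sizes the median of all genes moves to a log2 fold change of 0.15 and the higher share of the calls from 50.7% to 64.0%, so a change is meant here against that typical gene. Mitochondrial reads were 7.53% to 8.32% of counts in vector and 4.95% to 5.21% in BHLHE22 libraries, and their part in the results was not tested. Of the marker lists, that of epithelial cells (5 genes, none at 0) summed to 1167 to 1302 CPM in vector and 1117 to 1323 in BHLHE22. KRT19 made up most of it (means 803 and 852 CPM) and, like CDH1, was not called. EPCAM was called higher (log2 fold change 1.17, edgeR adjusted p = 0.000438). KRT8 and KRT18 were called lower (−0.32 and −0.38, edgeR adjusted p = 0.0218 and 0.0397), so single genes of the list moved both ways. The androgen receptor list (6 genes, KLK3 at 0) summed to 143–187 and 63.7–75.4 CPM, and fibroblast markers (7 genes, none at 0) to 78.5–89.8 and 61.0–62.6. Blood cell markers (7 genes; TYROBP, HBB and CD3E at 0) stood at 2.65–3.33 and 0.574–1.38 CPM, and hepatocyte markers (4 genes, TTR at 0) at 0.211–0.612 and 0.156–0.574. The part of these lists in the results was not tested. In bulk RNA from a line, fewer cells of a kind and less RNA per cell cannot be told apart.

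Promoter sequence is shown for members that changed in opposite directions along neighbouring steps: the desaturases SCD, FADS1 and FADS2 and the lipase PNPLA2, which fell, and the elongase ELOVL6 and the ligase ACSL1, which rose. The windows are RefSeq's (GRCh38.p14), 250 bases before to 50 after a start, 5′ to 3′ on the gene's strand. They lie at chr10:100346983-100347282 (plus strand) for SCD, chr11:61816954-61817253 (minus) for FADS1, chr11:61816154-61816453 (plus) for a start of FADS2, chr11:818664-818963 (plus) for PNPLA2, chr4:110198566-110198865 (minus) for ELOVL6 and chr4:184805504-184805803 (minus) for a start of ACSL1. Capitals mark matches, on either strand, to the E-box CANNTG, which basic helix-loop-helix factors bind, to the sterol response element form TCACNCCAC and to CCAAT, the box of NF-Y.
SCD: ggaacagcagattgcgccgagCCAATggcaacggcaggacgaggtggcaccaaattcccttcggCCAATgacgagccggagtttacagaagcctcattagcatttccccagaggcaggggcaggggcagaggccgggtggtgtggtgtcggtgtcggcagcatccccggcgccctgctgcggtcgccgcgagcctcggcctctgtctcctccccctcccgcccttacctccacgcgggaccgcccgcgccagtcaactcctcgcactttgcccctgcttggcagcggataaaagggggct
FADS1: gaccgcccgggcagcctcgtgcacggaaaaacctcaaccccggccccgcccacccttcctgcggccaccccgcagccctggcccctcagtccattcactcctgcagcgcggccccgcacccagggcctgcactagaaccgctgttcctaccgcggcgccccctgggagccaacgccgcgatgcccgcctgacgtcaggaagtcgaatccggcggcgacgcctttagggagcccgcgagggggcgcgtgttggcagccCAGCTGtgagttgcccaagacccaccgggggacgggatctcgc
FADS2: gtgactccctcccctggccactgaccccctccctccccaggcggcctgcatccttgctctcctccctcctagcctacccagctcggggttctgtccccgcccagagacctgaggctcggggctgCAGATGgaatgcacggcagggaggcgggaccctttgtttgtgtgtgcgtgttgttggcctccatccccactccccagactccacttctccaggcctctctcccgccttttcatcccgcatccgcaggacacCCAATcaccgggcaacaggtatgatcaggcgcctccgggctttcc
PNPLA2: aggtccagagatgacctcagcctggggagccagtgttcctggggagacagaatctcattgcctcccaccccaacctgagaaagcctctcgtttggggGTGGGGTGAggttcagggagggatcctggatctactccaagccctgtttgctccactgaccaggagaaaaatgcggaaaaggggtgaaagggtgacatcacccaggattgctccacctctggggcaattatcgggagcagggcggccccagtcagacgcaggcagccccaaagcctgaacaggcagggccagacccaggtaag
ELOVL6: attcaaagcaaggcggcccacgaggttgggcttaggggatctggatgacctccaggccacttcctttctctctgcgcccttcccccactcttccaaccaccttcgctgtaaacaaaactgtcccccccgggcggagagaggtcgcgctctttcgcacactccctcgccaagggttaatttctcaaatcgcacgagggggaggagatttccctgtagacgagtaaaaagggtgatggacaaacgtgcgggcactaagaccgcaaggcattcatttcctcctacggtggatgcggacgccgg
ACSL1: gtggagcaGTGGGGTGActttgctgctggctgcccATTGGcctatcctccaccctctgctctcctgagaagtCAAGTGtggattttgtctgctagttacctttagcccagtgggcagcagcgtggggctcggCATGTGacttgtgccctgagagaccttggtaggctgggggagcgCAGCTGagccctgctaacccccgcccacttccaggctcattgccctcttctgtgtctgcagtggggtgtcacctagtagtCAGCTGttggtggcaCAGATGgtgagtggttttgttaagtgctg

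Shares in the members' windows were set beside those in all windows of that length. Windows were at hand for 32 members, 58 windows in all, and 41 of them (70.7%) held an E-box, against 68.7% of all 35116 windows. No window was at hand for FASN, FABP5, DGAT1, DGAT2 and MGLL. The shares count windows and not genes, so members with several starts, such as PPARG, weigh more. Windows of the untested CD36 and ACSL5 are included. CCAAT was in 34.5% of the members' windows and in 34.6% of all, and SCD has it at −229 and −186 from the start. Of the E-box forms, which are counted within it, CAGCTG was in 12.1% against 17.9%, while the rarer form CATATG was in 1 member window against 3.04% of all. The sterol response element form was in 2 member windows (3.45%, against 1.13% of all): in PNPLA2, which fell, at −153, and in 1 of the 5 windows of ACSL1, which rose, at −242. The other 4 windows of ACSL1 hold no such form and 0 to 2 E-boxes each, against 5 in the one printed, and the other window of FADS2 holds none of these letters. DR1, the pair of AGGTCA copies 1 base apart that PPAR receptors bind with RXR, was in no member window and in 0.0228% of all. The FADS1 window holds CAGCTG at 8 and the FADS2 window an E-box at −126, while the ELOVL6 window holds none of these letters. A match is a description of sequence and not of binding.

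Of the 35 members tested, 10 rose (25.1% of all genes did) and 11 fell (24.3% of all genes did) with BHLHE22, so 60% were called against 49.4% of all genes, and 14 were not called. The median log2 fold change was 0.01, beside 0.00 over all genes, and single members ran from −1.63 for PPARA to 1.04 for DGAT2. The libraries of both groups did not overlap for 14 members that were higher and 11 that were lower with BHLHE22, beside 60.5% of all genes tested. Changes of at least 2-fold were seen in 5 members: PPARA, SCD and PNPLA2 were lower, and DGAT2 and ELOVL6 higher. By role, 3 of 5 synthesis members and 3 of 8 desaturases and elongases fell and 1 of each rose, while 2 of 3 activation and 3 of 7 oxidation members rose and 1 oxidation member fell.

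**Figure D1:**
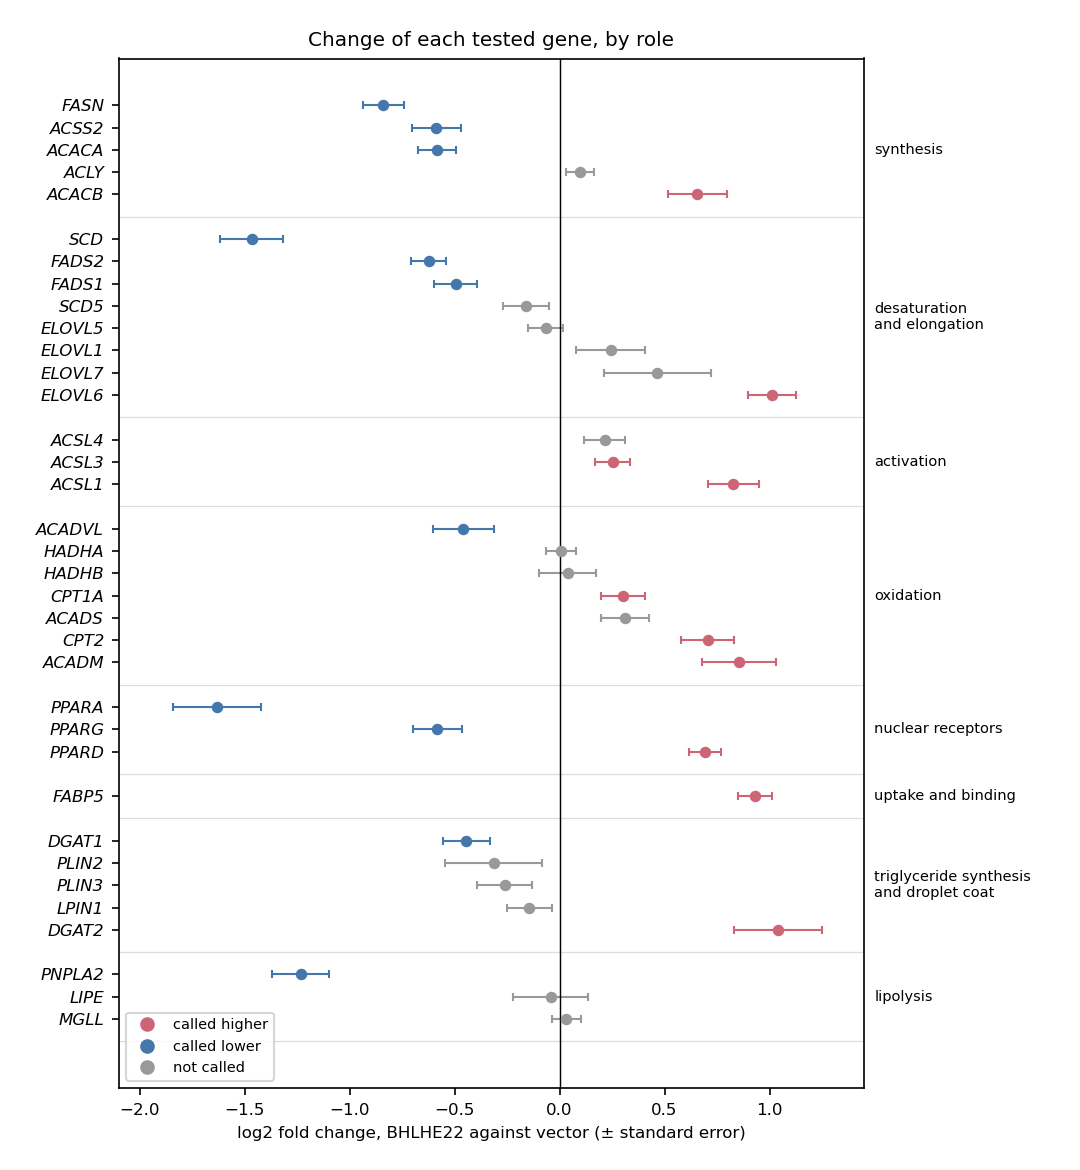
Log2 fold change of each tested member, BHLHE22 against vector, with its standard error, ordered by role; colour gives the call at an adjusted p under 0.05. Of 35 genes, 10 are called higher and 11 lower, and both directions stand within synthesis, oxidation and the nuclear receptors.

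Of the 5 synthesis members, which make acetyl-CoA, malonyl-CoA or palmitate, 3 fell, 1 rose and 1 was not called. FASN, the synthase itself (GRCh38, chromosome 17, 82078333 to 82098332), stood at 608, 649 and 517 CPM in the vector libraries and at 318, 332 and 341 CPM in the BHLHE22 libraries. All BHLHE22 values lay well under the lowest vector value, a 1.79-fold fall (log2 fold change −0.84, SE 0.10; edgeR's quasi-likelihood test, adjusted p = 0.000525). ACACA, the cytosolic acetyl-CoA carboxylase that supplies malonyl-CoA to the synthase (chromosome 17, 37084988 to 37406818), had 64.7, 59.8 and 64.7 CPM in vector and 39.4, 42.0 and 44.8 CPM with BHLHE22. Its groups did not overlap either, and it fell 1.5-fold (−0.58, SE 0.09; adjusted p = 0.00162). ACSS2 makes acetyl-CoA from acetate. Its 104, 115 and 87.8 CPM in vector stood above the 71.2, 70.7 and 62.7 CPM with BHLHE22, a 1.5-fold fall (−0.59, SE 0.12; adjusted p = 0.00473).

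The other source of cytosolic acetyl-CoA, and the other carboxylase, did not follow. ACLY, which cleaves citrate, had 240, 245 and 234 CPM in vector and 252, 258 and 258 CPM with BHLHE22. Its values did not overlap but differed little (log2 fold change 0.09, SE 0.07; adjusted p = 0.272), and with unscaled library sizes it was called higher (0.24; adjusted p = 0.0172). ACACB, the carboxylase at the mitochondrial outer membrane whose malonyl-CoA restrains carnitine palmitoyltransferase, went the other way from ACACA. It had 26.2, 22.2 and 31.1 CPM in vector and 40.7, 39.5 and 45.0 CPM with BHLHE22, with no overlap, a 1.58-fold rise (0.66, SE 0.14; adjusted p = 0.00619).

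**Figure D2:**
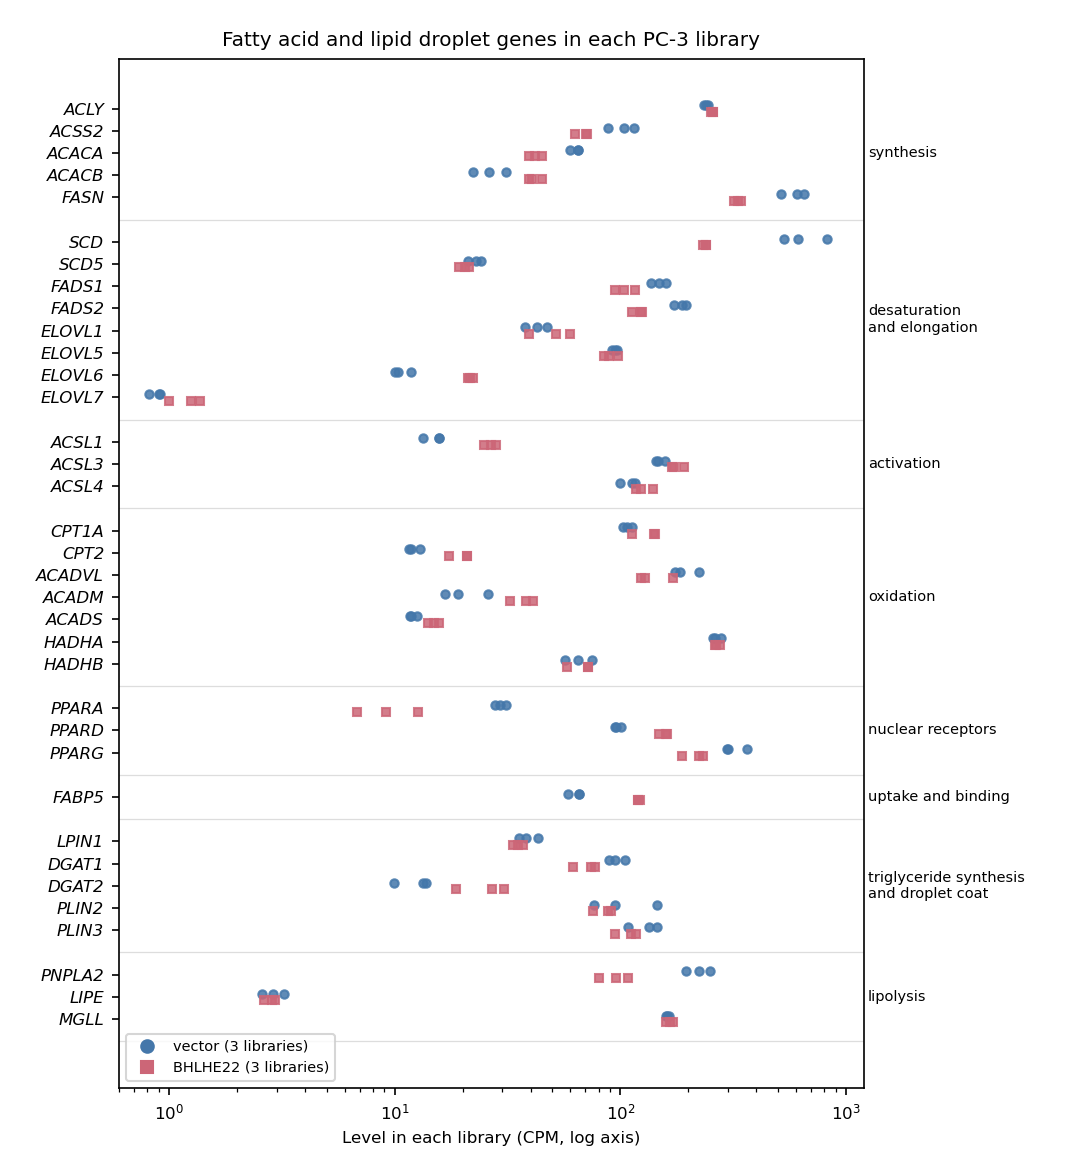
CPM (log axis) in each of the 3 vector and 3 BHLHE22 libraries for the 35 members tested, ordered by role. FASN, SCD, PPARA and PNPLA2 have all BHLHE22 values below all vector values, ELOVL6, FABP5 and DGAT2 all above, and the PLIN2 values overlap.

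Of the 8 desaturases and elongases, 3 fell and 1 rose. SCD, which puts the first double bond into saturated acyl-CoA (chromosome 10, 100347124 to 100364834), had the largest fall of the enzymes among the members. It stood at 613, 819 and 532 CPM in vector, the widest spread being among these, and at 239, 232 and 239 CPM with BHLHE22. That is a 2.77-fold fall (log2 fold change −1.47, SE 0.15; adjusted p = 0.000380), and its promoter is the first one printed above. FADS2 and FADS1 are the desaturases of polyunsaturated fatty acids and neighbours on chromosome 11. FADS2 had 188, 196 and 173 CPM in vector and 113, 123 and 125 CPM with BHLHE22, without overlap, a 1.54-fold fall (−0.62, SE 0.08; adjusted p = 0.000884). FADS1 fell 1.41-fold, from 148 ± 11 to 105 ± 11 CPM (mean ± SD, n = 3; adjusted p = 0.00554 by edgeR). Their exons share 490 bases on opposite strands and the strand setting of the counting is not given in the sources used here, so reads in that stretch cannot be told apart. SCD5, the other stearoyl-CoA desaturase, was not called (−0.16; adjusted p = 0.258).

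The elongases split differently. ELOVL6, which lengthens palmitate to stearate and so supplies the substrate of SCD (chromosome 4, 110045846 to 110199199), had 10.4, 10.1 and 11.8 CPM in vector and 21.5, 21.1 and 22.3 CPM with BHLHE22. Its groups lay far apart relative to their spread, a 2.02-fold rise (log2 fold change 1.01, SE 0.12; adjusted p = 0.000491). ELOVL1, ELOVL5 and ELOVL7, which act on other chains, were not called, at 0.24, −0.07 and 0.46 (adjusted p = 0.250, 0.536 and 0.185 by edgeR), and the value of ELOVL5 is 0.08 with unscaled library sizes. ELOVL7 was low, at 0.88 ± 0.06 CPM in vector and 1.21 ± 0.19 CPM with BHLHE22 (SD, n = 3).

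Of the long-chain acyl-CoA synthetases, which activate fatty acids for either fate, 2 of 3 tested rose. ACSL1, which serves both oxidation and triglyceride synthesis (chromosome 4, 184755595 to 184826818), had 15.7, 13.3 and 15.8 CPM in vector and 24.8, 26.6 and 28.1 CPM with BHLHE22. Its groups did not overlap, and the rise was 1.78-fold (log2 fold change 0.83, SE 0.12; adjusted p = 0.00120). ACSL3, found on nascent droplets, rose 1.19-fold, from 150 ± 8 to 178 ± 12 CPM (SD, n = 3; edgeR adjusted p = 0.0357). That call was lost with replicate 1 or 2 of vector, or 2 or 3 of BHLHE22, left out (adjusted p = 0.102, 0.0906, 0.0740 and 0.0921). ACSL4, which prefers arachidonate, was not called (0.21; adjusted p = 0.105). ACSL5, at 1, 10 and 4 counts in vector and 12, 10 and 8 with BHLHE22, was too low to test.

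Of the 7 members of mitochondrial oxidation, 3 rose, 1 fell and 3 were not called. CPT2, the inner carnitine palmitoyltransferase (chromosome 1, 53196429 to 53214197), had 11.8, 13.0 and 11.6 CPM in vector and 17.5, 21.0 and 20.8 CPM with BHLHE22. All BHLHE22 libraries were above all vector libraries, a 1.63-fold rise (log2 fold change 0.71, SE 0.13; adjusted p = 0.00290). ACADM, the medium-chain dehydrogenase (chromosome 1, 75724347 to 75787575), had 19.1, 16.8 and 26.0 CPM in vector and 32.5, 38.1 and 41.2 CPM with BHLHE22, also without overlap. It rose 1.81-fold (0.85, SE 0.18; adjusted p = 0.00578). Some exon bases of these genes are shared with a neighbour, 99 of CPT2 with C1orf123 on the opposite strand and 157 of ACADM with RABGGTB on its own strand, so part of their reads is uncertain.

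CPT1A, the outer carnitine palmitoyltransferase and the step that malonyl-CoA inhibits (chromosome 11, 68754620 to 68844410), was at the edge of the call. It had 107, 103 and 112 CPM in vector and 113, 143 and 141 CPM with BHLHE22, so that BHLHE22 replicate 1 lay just above the vector libraries and the other two well above. The fold was 1.23 (log2 fold change 0.30, SE 0.11; adjusted p = 0.0472). It was not called with DESeq2 (adjusted p = 0.0572), with limma-voom (0.0553), with DESeq2 size factors in edgeR (0.0512) and without any vector replicate (0.112, 0.114 and 0.0577 in order) or BHLHE22 replicate 2 or 3 (0.150 and 0.123).

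ACADVL, the very-long-chain dehydrogenase that takes the first step after CPT2, was the oxidation member that fell. It went from 194 ± 25 to 141 ± 26 CPM (SD, n = 3), 1.37-fold lower (edgeR adjusted p = 0.0331), with the call lost with unscaled library sizes (0.0978) and with replicate 1 or 2 of vector, or 2 or 3 of BHLHE22, left out (0.0618, 0.105, 0.111 and 0.107). ACADS, the short-chain dehydrogenase, was 12.01 ± 0.47 CPM in vector and 14.91 ± 0.84 with BHLHE22 (SD, n = 3), and although these values did not overlap it missed the threshold (log2 fold change 0.31, SE 0.11; adjusted p = 0.0504). It passed with limma-voom (0.0476), with a filter at 1 CPM (0.0498) and with unscaled library sizes (0.0137). HADHA and HADHB, the subunits of the trifunctional protein that completes the cycle on long chains, lie head to head on chromosome 2 with overlapping promoter windows. HADHA was 267 ± 12 CPM in vector and 268 ± 8 with BHLHE22, and HADHB 65.6 ± 9.1 and 67.3 ± 8.3 (SD, n = 3; adjusted p = 0.942 and 0.836 by edgeR).

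The contrast of synthesis with oxidation was taken in each library as the mean log2 CPM of the 5 synthesis members minus that of the 7 oxidation members. It was 1.28, 1.20 and 1.07 in the vector libraries and 0.73, 0.64 and 0.68 in the BHLHE22 libraries, so all BHLHE22 libraries were lower. The group means were 1.18 ± 0.10 and 0.69 ± 0.05 (SD, n = 3), a difference of −0.50, and no test was made because the members were chosen with results of these data known. Both means moved: synthesis went from 6.90 to 6.65 and oxidation from 5.71 to 5.96 in log2 CPM. Within oxidation, CPT2 and ACADM rose most (log2 fold change 0.71 and 0.85), HADHA and HADHB stood at 0.01 and 0.04, and ACADVL fell (−0.46). Of the 15 other mitochondrial oxidation genes tested, 3 rose and 3 fell, with a median of −0.01, so the oxidation mean speaks for its 7 members only. The median log2 fold change was −0.58 over synthesis and 0.30 over oxidation, beside 0.00 over all genes. With unscaled library sizes these medians were −0.44 and 0.45, with the same signs. ACACB is a synthesis gene by its reaction but not by its site, and without it the contrast was 1.73 ± 0.15 in vector and 1.00 ± 0.04 with BHLHE22, a difference of −0.73.

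**Figure D3:**
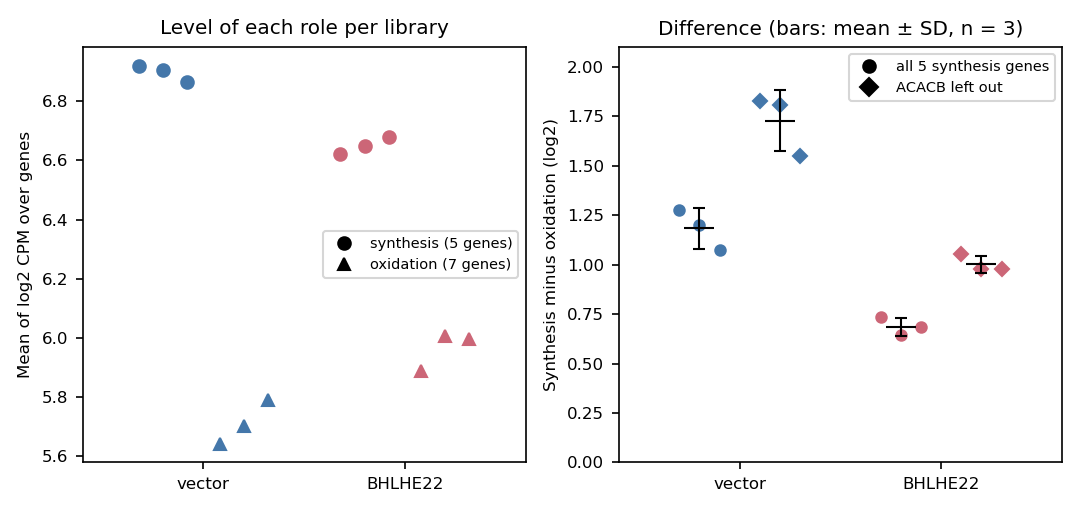
Left, the mean log2 CPM of the synthesis and the oxidation members in each library; right, their difference per library with ACACB in and out of synthesis, with the mean and SD of 3 libraries per group. The difference is about 1.18 in vector and 0.69 with BHLHE22, and no BHLHE22 library reaches the lowest vector library.

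All 3 PPAR receptors changed, in both directions. PPARA, the receptor that drives fatty acid oxidation genes in liver and muscle (chromosome 22, 46150521 to 46243756), had the largest change of all members. It stood at 31.2, 27.9 and 29.2 CPM in vector and at 12.6, 9.11 and 6.84 CPM with BHLHE22, far apart. The fall was 3.10-fold (log2 fold change −1.63, SE 0.21; adjusted p = 0.000780). Of the oxidation members, CPT2, ACADM and, at the edge of the call, CPT1A rose, ACADVL fell, and ACADS, HADHA and HADHB were not called. Any link of these to PPARA was not tested. PPARD, the widely expressed receptor of the family (chromosome 6, 35342558 to 35428191), had 100.4, 95.3 and 94.6 CPM in vector and 161, 160 and 148 CPM with BHLHE22. It rose 1.62-fold, without overlap (0.69, SE 0.08; adjusted p = 0.000419). PPARG, the receptor of fat cell formation and lipid storage, fell 1.5-fold, from 320 ± 38 to 214 ± 24 CPM (SD, n = 3; edgeR adjusted p = 0.00491).

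FABP5, a carrier that binds fatty acids in the cytosol and is known to pass them to PPARD, had the smallest adjusted p of the members. Its values were 65.4, 58.8 and 65.4 CPM in vector and 122, 119 and 120.2 CPM with BHLHE22, with little spread in either group. The rise was 1.91-fold (log2 fold change 0.93, SE 0.08; adjusted p = 0.000180). The table lists 13 pseudogenes of FABP5 that hold 8297 counts over all libraries, against 7888 for FABP5, and their sum went from 61.9 ± 3.8 to 130.7 ± 4.0 CPM (SD, n = 3). The split of reads between the gene and these pseudogenes is uncertain. CD36, the fatty acid importer, had 4, 3 and 6 counts in vector and 0, 7 and 0 with BHLHE22, too few to test.

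The 2 enzymes that close triglyceride synthesis went opposite ways. DGAT2, which esterifies newly made fatty acids on droplets (chromosome 11, 75759512 to 75801535), had 9.91, 13.3 and 13.8 CPM in vector and 18.7, 27.1 and 30.4 CPM with BHLHE22. Its groups did not overlap although both spread widely, and it rose 2.06-fold (log2 fold change 1.04, SE 0.21; adjusted p = 0.00510). DGAT1, which acts in the endoplasmic reticulum, fell 1.36-fold, from 96.5 ± 8.0 to 71.0 ± 8.1 CPM (SD, n = 3; edgeR adjusted p = 0.0123), and shares 139 exon bases with HSF1 on the opposite strand. LPIN1, the phosphatidate phosphatase upstream of both, was not called (−0.14; adjusted p = 0.303; 0.0045 with unscaled library sizes).

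Of the droplet coat, neither perilipin among the members was called. PLIN2, the coat protein of most droplets outside fat (chromosome 9, 19108375 to 19149290), had 94.9, 145 and 76.7 CPM in vector and 75.9, 88.3 and 90.5 CPM with BHLHE22. The groups overlapped and vector replicate 2 stood above all others (log2 fold change −0.31, SE 0.23; adjusted p = 0.296; −0.0135 on the log2 scale without that library). PLIN3 was at −0.26 (adjusted p = 0.136), and was called lower only without vector replicate 3 (0.0387).

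Lipolysis changed at its first enzyme. PNPLA2, the lipase that removes the first fatty acid from triglyceride (chromosome 11, 818902 to 825573), had 223, 249 and 196 CPM in vector and 109, 95.3 and 80.1 CPM with BHLHE22. No BHLHE22 library reached the vector range, and the fall was 2.35-fold (log2 fold change −1.23, SE 0.14; adjusted p = 0.000424). The enzymes that follow were not called. LIPE, the diglyceride lipase, had 2.91 ± 0.33 and 2.83 ± 0.17 CPM, and MGLL, the monoglyceride lipase, 162 ± 2 and 166 ± 6 CPM (SD, n = 3; adjusted p = 0.865 and 0.727 by edgeR). The LIPE value is 0.10 on the log2 scale with unscaled library sizes against −0.04, and LIPE shares 500 exon bases with its antisense gene LIPE-AS1, which held 137 counts to its 244.

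Levels between genes are compared per kilobase of the longest coding transcript in GENCODE 29, as CPM per kb. The order depends on that length: it is 2029 bases for PPARG, whose exons together span 4535, while SCD has 5362 for both. On the deposited FPKM, also scaled by a gene length, SCD led in vector (mean 115, HADHA 59.2, PPARG 43.7). With BHLHE22, HADHA led on FPKM (65.9, FABP5 48.1). The order below therefore holds for the longest coding transcript only. On that scale PPARG was the highest of the members in vector, at 158 ± 19, followed by SCD at 122 ± 28, whose ranges overlap within their SD, and PNPLA2 at 91.6 ± 10.9, HADHA at 87.8 ± 3.8 and ACADVL at 83.4 ± 10.9, which do not differ beyond their spread (SD, n = 3 each). FASN followed at 69.1 ± 7.9 and FABP5 at 64.1 ± 3.8. With BHLHE22 the order changed at the top: FABP5 stood at 122 ± 1 and PPARG at 105 ± 12, then HADHA at 88.2 ± 2.6 and ACADVL at 60.7 ± 11, with SCD lower down at 44.1 ± 0.8, PNPLA2 at 39.0 ± 5.9 and FASN at 38.6 ± 1.4. ELOVL6 and ACSL1, which rose, were low members, ELOVL6 going from 1.66 to 3.35 and ACSL1 from 3.64 to 6.46 CPM per kb, while ACACB went from 2.83 ± 0.48 to 4.46 ± 0.31 and ACACA from 6.33 ± 0.28 to 4.22 ± 0.27 (SD, n = 3), so that with BHLHE22 their values overlapped. PPARA went from 2.95 to 0.95, well under PPARD at 25.6 and 41.4.

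**Figure D4:**
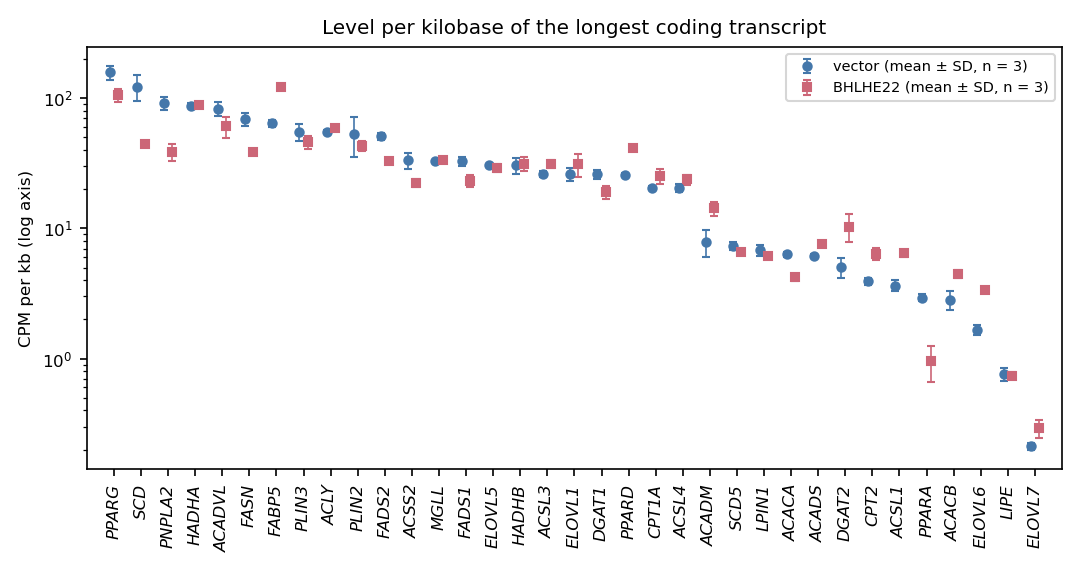
CPM per kilobase of the longest coding transcript (log axis) for each tested member, mean and SD of 3 libraries, in vector and with BHLHE22. With this length PPARG and SCD lead in vector at 158 and 122, and FABP5 leads with BHLHE22 at 122, and the order depends on the length used.

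Beyond the members, 125 other genes of these pathways were listed, of which 101 were tested. Of these, 24 rose (25.1% of all genes) and 26 fell (24.3% of all genes), 49.5% called against 49.4% of all genes, with a median of −0.03. Among regulators and partners of synthesis 1 of 14 rose and 7 fell, with a median of −0.37. ME1, the malic enzyme that makes NADPH for the synthase, fell 3.06-fold (log2 fold change −1.61; adjusted p = 0.000229), SREBF1, the transcription factor of lipogenic genes, fell by 0.85 on the log2 scale (adjusted p = 0.000987), and NR1H2, a liver X receptor, by 0.61 (0.00129). Of the synthesis and desaturation members, FASN, ACACA, ACSS2, SCD, FADS1 and FADS2 also fell, and ACLY and SCD5 were not called. ACACB rose (0.66), as did the elongase ELOVL6 (1.01). Any link between the regulators and these members was not tested. In mitochondrial fatty acid synthesis 1 of 4 rose, MECR (0.45; adjusted p = 0.0233), and that call was lost with replicate 1 or 2 of vector, or 2 or 3 of BHLHE22, left out (0.0785, 0.0545, 0.0948 and 0.0516).

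Among the other elongases and the elongation cycle, 3 of 9 rose and none fell (25.1% and 24.3% of all genes did), with a median of 0.37. The share called was 33.3%, against 49.4% of all genes. ELOVL2, which lengthens polyunsaturated chains, rose from 3.70 ± 0.74 to 11.9 ± 1.2 CPM (SD, n = 3; log2 fold change 1.69; edgeR adjusted p = 0.000408). HACD1, a dehydratase of the cycle, rose by 0.68 (adjusted p = 0.0135). ELOVL3 was at 3 to 9 counts in vector and 11 to 22 with BHLHE22 (1.34; adjusted p = 0.0251), and was not called with DESeq2 (0.0871) or with replicate 1 or 3 of vector, or 2 or 3 of BHLHE22, left out (0.0614, 0.0591, 0.0598 and 0.0845).

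Other mitochondrial oxidation genes went both ways, with 3 of 15 higher, 3 lower and a median of −0.01. ECI2, an enoyl-CoA isomerase, rose (0.55; adjusted p = 0.00607), while ETFA, the electron carrier of the dehydrogenases, and ACADSB, a branched-chain dehydrogenase, fell (−0.54 and −0.90; adjusted p = 0.00289 and 0.00471). In the peroxisome, which shortens very long chains, 5 of 10 rose and 1 fell (25.1% and 24.3% of all genes did), with a median of 0.42. EHHADH and ACAA1, its later steps, rose by 1.304 and 0.80 (adjusted p = 0.000994 and 0.000785).

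Of the partners of the PPAR receptors, 1 of 6 rose and 3 fell (25.1% and 24.3% of all genes did). RXRA, their dimer partner, and MED1, a coactivator, fell by 0.46 and 0.38 (adjusted p = 0.00276 and 0.00411), and PPARGC1B, another coactivator, rose (0.50; adjusted p = 0.0234). The last call was lost with replicate 2 or 3 of vector, or 2 or 3 of BHLHE22, left out (0.0585, 0.0521, 0.0780 and 0.0542). Of 4 PPAR targets outside oxidation, FABP4 rose (1.44; adjusted p = 0.00191) and CIDEC, a droplet fusion protein, fell (−2.28; adjusted p = 0.00110), both at low levels, with group means under 5 CPM.

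Of 7 uptake genes 2 rose and 2 fell (25.1% and 24.3% of all genes did). The calls of SLC27A4 (0.43, edgeR adjusted p = 0.0242), SLC27A2 (−0.69, 0.0264) and FFAR4 (−0.56, 0.0167) did not hold in every fit that left out 1 library. SLC27A4 was lost with replicate 1 or 2 of vector, or 2 or 3 of BHLHE22, left out (adjusted p = 0.0751, 0.0700, 0.0546 and 0.0684). SLC27A2 was lost without replicate 1 or 2 of vector (0.0700 and 0.0852), without any 1 BHLHE22 library (0.0744, 0.0514 and 0.0548 in order) and with unscaled library sizes (0.0541). FFAR4 was lost without BHLHE22 replicate 3 (0.0519) and with unscaled library sizes (0.0524). In glycerolipid synthesis 1 of 10 rose and 4 fell, beside the same shares of all genes. GPAT3, which starts it, rose 2.70-fold (1.43; adjusted p = 0.000392), and AGPAT5 and LPIN2, the next steps, fell by 0.77 and 1.00 (0.00118 and 0.00417).

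Of 11 droplet proteins and lipase cofactors 2 rose and 4 fell (25.1% and 24.3% of all genes did), with a median of −0.49. PLIN1 and PLIN4, perilipins of fat cells, fell by 2.12 and 1.04 on the log2 scale (adjusted p = 0.000279 and 0.00143), and SOAT1, which makes cholesteryl esters for droplets, rose (0.82; 0.00107). PLIN1, PLIN4 and CIDEC, which fell, and FABP4, which rose, are also on the adipocyte marker list, whose 7 genes summed to 53.5 to 65.7 CPM in vector and 27.7 to 34.8 with BHLHE22, with ADIPOQ, LEP and LPL at 0. Most of that sum was PLIN4, at 49.8 ± 7.4 and 24.2 ± 3.8 CPM (SD, n = 3). Of 11 other acyl-CoA enzymes 4 rose and 1 fell, beside 25.1% and 24.3% of all genes. ACOT7, a thioesterase that frees fatty acids from CoA, rose from 97.8 ± 7.0 to 227 ± 11 CPM (SD, n = 3; 1.21; edgeR adjusted p = 9.23e-05). ACOT2 and ACOT1, near-identical neighbours between which reads may be split, both stood at 0.92 (adjusted p = 0.000671 and 0.00225).

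**Figure D5:**
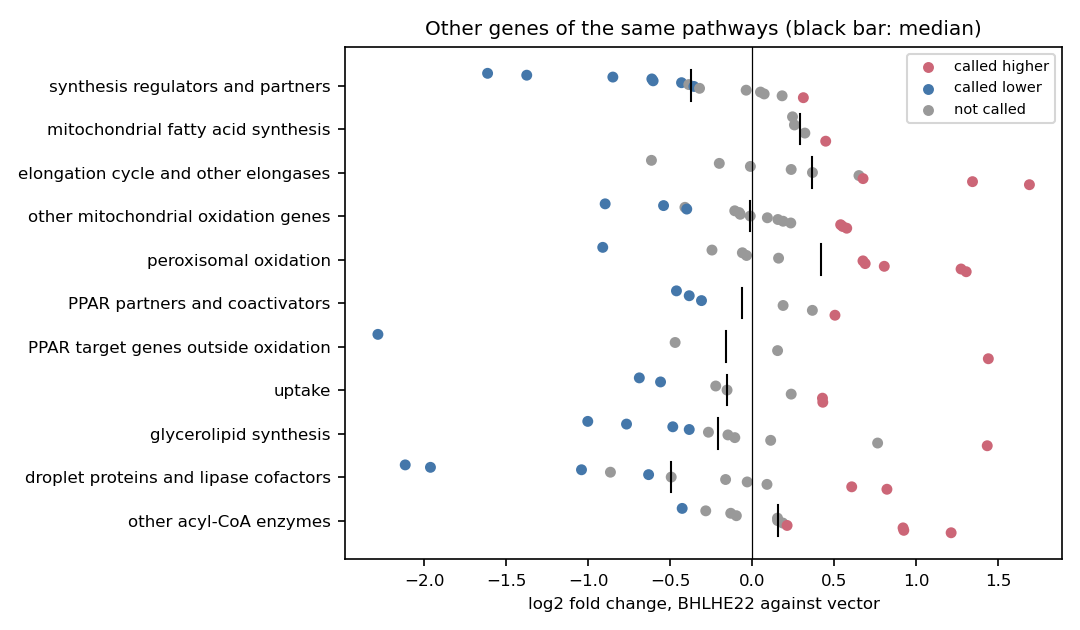
Log2 fold change of each tested gene of the other pathway lists, BHLHE22 against vector, 1 row per list, with the list median as a bar and colour giving the call. The regulators of synthesis lie mostly below 0, with a median of −0.37, and the peroxisomal genes mostly above, with a median of 0.42.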

How the data were processed

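RNA of 6 PC-3 libraries, 3 vector and 3 BHLHE22, was sequenced. The authors deposited raw counts and FPKM per gene in 1 table; CASAVA 1.8, HISAT2 2.1.0, StringTie 1.3.4b and edgeR and build GRCh38 are named per the submitters' processing notes, without roles, and the annotation and strand setting were not given in the sources used here. Control columns were taken as vector libraries because the series' design text calls vector cells the control. Counts of the 15945 genes kept by filterByExpr (99.8% of all counts) were tested with edgeR 4.0.16 in R 4.3.3. The fit used TMM, robust quasi-likelihood, group only and Benjamini-Hochberg over all genes tested. The code was run first on simulated data with far fewer changed genes than were called here, so that run does not bear on the share called. Alternatives were limma-voom (limma 3.58.1), DESeq2 1.42.0, other scalings, filters and each library left out. Depth of 12186723 to 15949537 counts makes 1 count worth 0.0600 to 0.0780 CPM. The deposited FPKM were used for levels between genes only to show that the order depends on length. The length they imply is 1.00 times the longest coding transcript for SCD and 7.77 times for ACADVL.

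The members and lists were chosen with earlier results of these data known. Values per library are given for members called with a fold of at least 1.5 and for FASN, ACACA, SCD, CPT1A and PLIN2 whatever their result; of the other lists, up to 3 called genes with the smallest p are named, except 1 that is not reported here. Libraries of a group differed by 11.0 to 22.5 in chi-square per degree of freedom and those of different groups by 69.2 to 135.7, so no library was taken as a repeat of another. Positions of genes come from the deposited table, and 36 of 37 members have the same position in GENCODE 29.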

Additional observations from a re-analysis of the deposited data

How the results depend on the processing

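Over 14 alternatives, 8 to 13 members were called higher and 9 to 12 lower, against 10 and 11; at an adjusted p under 0.01 they were 8 and 9, and all genes 2480 and 2482 against 3996 and 3880. Unscaled library sizes moved the synthesis median from −0.58 to −0.44 and the oxidation median from 0.30 to 0.45, and changed the sign of members that are not called: ELOVL5 to 0.0789, LPIN1 to 0.0045 and LIPE to 0.103; the shift of all genes by 0.15 is built into that setting. Moving ACACB out of synthesis took synthesis minus oxidation from −0.50 to −0.73, by construction. Leaving out 1 library at a time, the uncalled HADHA ran from −0.0127 to 0.0509, HADHB from −0.0525 to 0.152 and LIPE from −0.119 to 0.0473. Calls of CPT1A, ACSL3 and ACADVL were lost in some alternatives, as given above, and the cause was not tested. Without a low-count filter, 31773 genes were tested and 24.7% called, since many hold few counts.

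Same-numbered libraries did not deviate together (correlations 0.0054, −0.0267 and 0.0105, with −0.0397 to 0.0393 over all 9 pairs). Whether libraries of the same number were prepared together cannot be told from these values. With the replicate block, 9 members were called higher and 11 lower, and of all genes 3688 higher and 3604 lower. CPT1A was not called with the block (adjusted p = 0.0610), nor were ELOVL3 (0.0554) and PPARGC1B (0.0507).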

Other observations

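AGPAT1, named here after its values were seen, had 232, 257 and 2 counts in the vector libraries and 215, 304 and 351 in the BHLHE22 libraries, so vector replicate 3 is nearly without reads of this acyltransferase gene (adjusted p = 0.579 by edgeR). PPARGC1A, a coactivator of the PPAR receptors also named after its values were seen, had 7, 11 and 3 counts in vector and 0 in each BHLHE22 library, too few to test.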
